A study of Mus musculus with 20 samples.

Results

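The genes described here are 8 heat shock chaperones (Hspa1a, Hspa1b, Hspa8, Hsph1, Dnajb1, Hsp90aa1, Hspb1 and Hspe1) and the metallothioneins Mt1 and Mt2, measured in mouse bone marrow-derived macrophages given cholesterol crystals and cyclodextrin. They were chosen by gene name, through the platform annotation of the bead array, and account for 10 of the 19057 genes with a probe of 1 symbol and for 18 of 34885 such probes. Of the 18 probes, 12 passed a detection filter (detection p below 0.05 on at least 5 of the 20 arrays), so that 9 of the 10 genes were among the 10018 genes tested. Both probes of Hspa1b were detected on 0 arrays.

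Marrow of C57BL/6 mice was grown into macrophages over 6 days, in medium holding 10% FCS (fetal calf serum) and, as growth factor, M-CSF at 40 ng/ml, and RNA was hybridised to Illumina bead arrays. There were 4 groups of 5 arrays. Group CD-cc received 200 µg cholesterol crystals per 1000000 cells for 3 h and then 10 mM hydroxypropyl-beta-cyclodextrin (CD, a sugar ring that takes up cholesterol) for 6 h, and group cc received the crystals without cyclodextrin. Group CD received the cyclodextrin without crystals, and group con received neither. The mice of CD-cc, cc and CD were 2 to 5 months old by the labels and those of con 10 to 15 months old, so treatment and the age label cannot be told apart in any comparison with con. The sources used here do not say how long cells of cc and con stood while the others were in cyclodextrin. The study's text names mice lacking LXR, a sterol-sensing receptor, beside age-matched wild-type littermates, and the labels give no genotype for any array.

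Heat shock chaperones bind unfolded proteins and let them fold again, and heat shock factor 1 (HSF1) switches on the inducible ones by binding repeats of the letters GAA and TTC near their start sites. Hsp70 proteins work with J-domain partners such as Dnajb1 and exchange factors such as Hsph1, Hsp90 matures kinases and receptors, and Hspe1 is the lid of the mitochondrial chaperonin. Metallothioneins are small cysteine-rich proteins that hold zinc and copper, and metal transcription factor 1 (MTF1) switches their genes on when free zinc rises.

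The start regions of the genes the results turn on are shown so that these letters can be seen. Of the 10 genes, 8 had an entry in the RefSeq promoter table (GRCm38.p6), and Hspa8 and Hsp90aa1 did not. The 250 bases before each start site were searched on both strands for a pair of facing heat shock half-sites (GAANNTTC or TTCNNGAA), for a run of 3 (GAANNTTCNNGAA or TTCNNGAANNTTC, which contains the pair), and for the core of the metal response element (TGCACNC or TGCGCNC). The pair was found in 12.8% of 32851 start regions, the run of 3 in 0.466% and the metal response core in 21.4%. Among the 8 genes, 5 held the pair, 1 the run of 3 and 3 the metal response core. In the chaperone sequences below, capitals mark the heat shock letters: Hspa1a at chr17:34972157-34972406 (minus strand), Hsph1 at chr5:149636337-149636586 (minus strand), Hspb1 at chr5:135887669-135887918 (plus strand) and Hspe1 at chr1:55087898-55088147 (plus strand).
Hspa1a: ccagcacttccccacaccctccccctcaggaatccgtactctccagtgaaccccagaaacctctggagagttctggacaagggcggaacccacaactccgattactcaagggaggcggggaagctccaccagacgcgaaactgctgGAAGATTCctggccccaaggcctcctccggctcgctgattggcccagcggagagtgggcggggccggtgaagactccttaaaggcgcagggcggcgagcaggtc
Hsph1: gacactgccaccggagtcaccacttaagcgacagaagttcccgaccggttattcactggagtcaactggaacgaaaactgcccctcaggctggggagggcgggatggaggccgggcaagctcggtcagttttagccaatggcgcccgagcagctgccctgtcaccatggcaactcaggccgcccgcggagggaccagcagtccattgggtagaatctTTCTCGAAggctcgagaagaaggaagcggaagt
Hspb1: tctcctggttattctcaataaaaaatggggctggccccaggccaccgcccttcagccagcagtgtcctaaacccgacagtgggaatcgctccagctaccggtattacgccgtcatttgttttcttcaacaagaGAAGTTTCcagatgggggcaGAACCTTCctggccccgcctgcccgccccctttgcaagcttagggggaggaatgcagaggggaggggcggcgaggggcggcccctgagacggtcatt
Hspe1: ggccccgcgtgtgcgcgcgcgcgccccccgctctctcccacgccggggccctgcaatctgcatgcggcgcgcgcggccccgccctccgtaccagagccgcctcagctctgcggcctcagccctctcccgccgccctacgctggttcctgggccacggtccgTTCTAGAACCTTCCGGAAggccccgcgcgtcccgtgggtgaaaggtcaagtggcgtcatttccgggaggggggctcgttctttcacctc

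The Hspa1a region held 1 pair, ending 96 bases before the start, and the Hspa1b region was identical to it at 247 of 250 positions. Hspb1 held 2 separate pairs, ending 109 and 89 bases before its start. The pair of Hsph1 ended 25 bases before the start used above and 46 before another start listed for it. Hsph1 is listed at chr5:149616843-149636498, so the region shown lies partly inside the gene. Hspe1 held overlapping runs of 3, in a marked stretch of 18 bases that ended 71 bases before the start. Its region overlaps a start region of Hspd1, the chaperonin barrel that Hspe1 closes, by 215 bases on the opposite strand. The 2 start regions of Dnajb1 held no match, and the second, at chr8:83608298-83608547, lies inside the gene. Of the genes without a printed sequence, Dnajb1 lies at chr8:83608175-83612653, Hspa8 at chr9:40801276-40805202 and Hsp90aa1 at chr12:110691036-110696395. In the metallothionein sequences, capitals mark the metal response core: Mt1 at chr8:94178839-94179088 (plus strand) and Mt2 at chr8:94172368-94172617 (plus strand).
Mt1: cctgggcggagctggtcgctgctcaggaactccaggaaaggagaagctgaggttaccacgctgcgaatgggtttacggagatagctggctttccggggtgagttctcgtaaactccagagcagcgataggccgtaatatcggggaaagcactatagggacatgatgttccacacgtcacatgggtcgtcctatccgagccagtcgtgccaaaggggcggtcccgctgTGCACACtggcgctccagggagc
Mt2: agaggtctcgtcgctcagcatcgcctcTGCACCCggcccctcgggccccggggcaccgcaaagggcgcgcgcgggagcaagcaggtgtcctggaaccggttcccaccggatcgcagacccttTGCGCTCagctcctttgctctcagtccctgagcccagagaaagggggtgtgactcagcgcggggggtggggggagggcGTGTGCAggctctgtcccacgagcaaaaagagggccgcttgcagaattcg

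Mt1 held 1 such core, ending 16 bases before the start used, and Mt2 held 3, ending 216, 121 and 43 bases before its start. The Mt1 gene is listed at chr8:94178883-94180327, so its region shown lies mostly inside the gene. Letters outside the regions shown were not searched, so these counts do not compare the whole promoters of Mt1 and Mt2. The remaining match among the 8 genes was in Hspe1, ending 232 bases before its start. These are matches of letters and do not show that a factor bound there.

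Across arrays the median bead signal was 86.6 to 128 and 33.9 to 39.5% of all probes were detected. Values below are background-corrected, quantile normalised log2 bead signals, and comparisons are limma tests with Benjamini-Hochberg adjustment over 10018 genes, called at an adjusted p below 0.05. The arrays also form 5 sets of 4, 1 array of each group, which the labels do not name and which were found in the authors' value table; calls that a fit with the set as a block adds in the comparisons with con are given beside the main ones. Errors given after ± are SEs of the fit, unless SD is written. The labels do not say whether arrays of a group came from separate mice or cultures, so the p-values measure the spread between arrays. Macrophage markers were present (11 of 12 tested, with summed signals of 69740 to 81460 in CD-cc, 75120 to 86280 in cc, 85220 to 89250 in CD and 78700 to 93190 in con). Of the markers of other cells, 1 of 8 neutrophil, 2 of 6 B cell, 1 of 6 T and NK cell and 0 of 6 erythroid and mast cell genes each were tested. All 6 fibroblast genes were measured, with summed signals of 552.4 to 2151 in CD-cc, 653.6 to 2254 in cc, 632.5 to 1622 in CD and 588.8 to 1978 in con, and their part in the results was not tested. In such bulk RNA, fewer cells of a type and less RNA per cell cannot be told apart. The 12 arrays of chips 1 and 5 had Xist, the RNA that coats the inactive X chromosome, at 11 to 11.51 log2, and the 8 arrays of chips 2, 3, 4 and 6 had it at 4.26 to 4.45, so the chip batch and the Xist level cannot be told apart. Each group had 3 arrays in the first batch and 2 in the second.

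**Figure D1:**
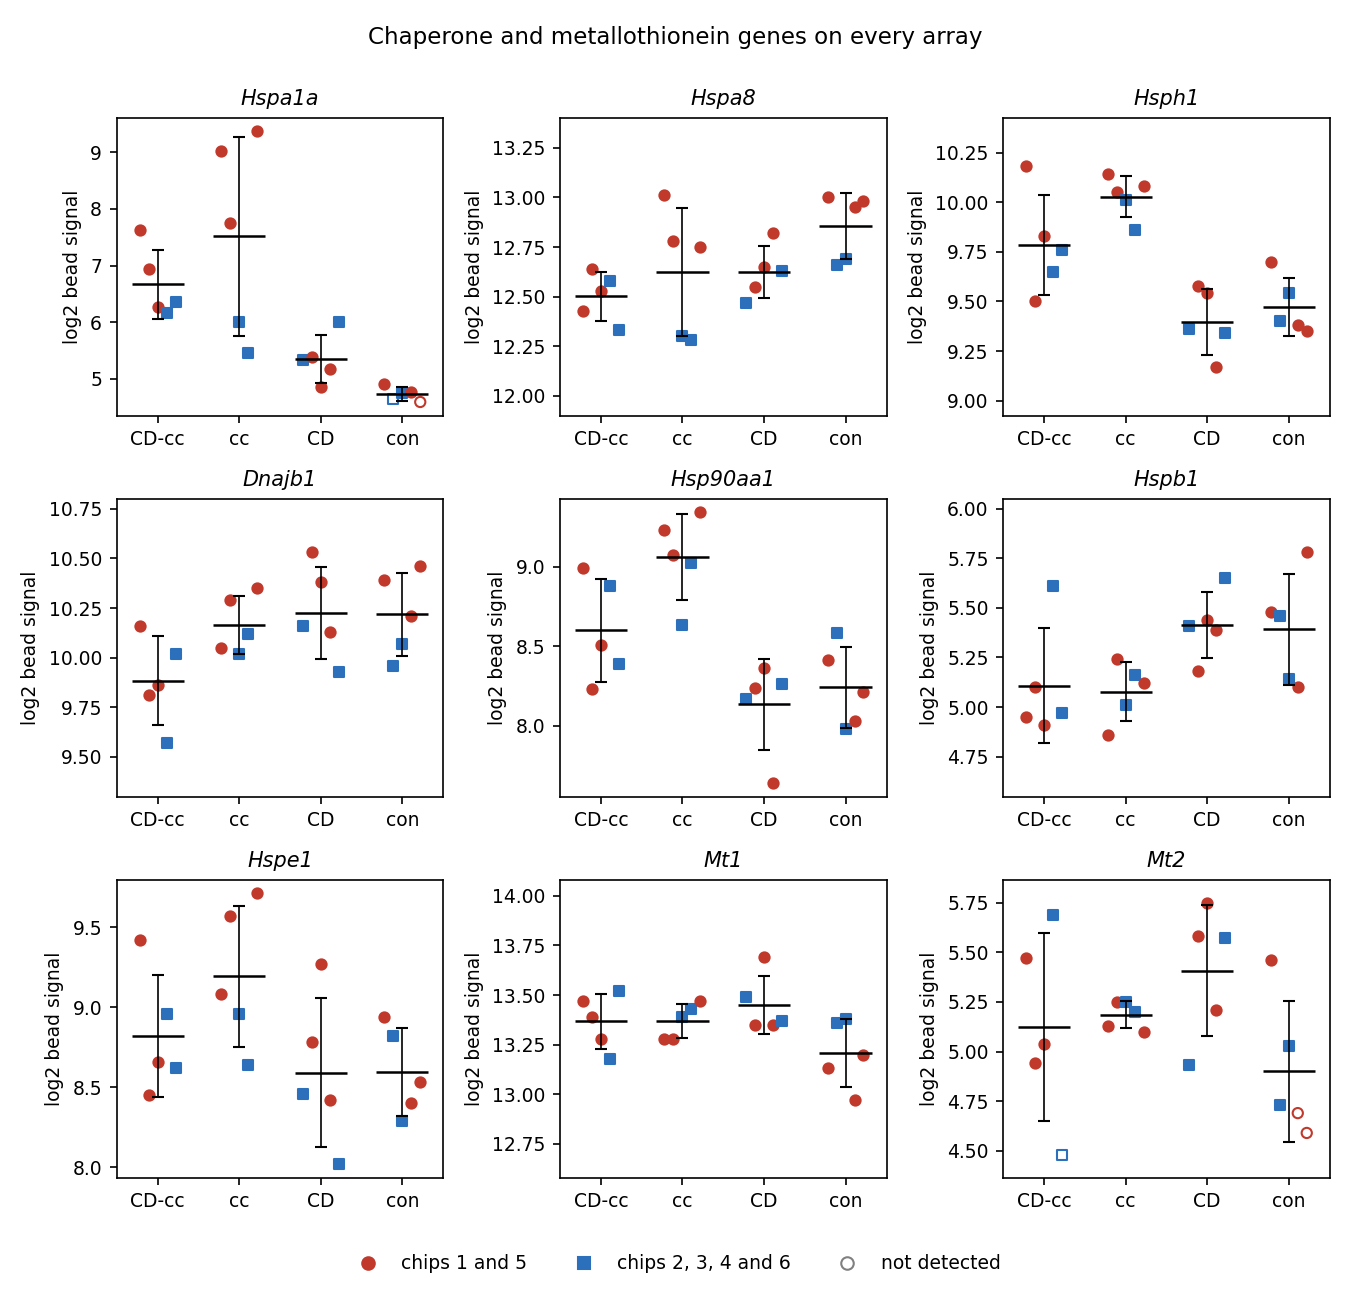
Log2 bead signal (vertical axis, a separate range for each gene) of the 9 tested chaperone and metallothionein genes in groups CD-cc, cc, CD and con. Each point is an array (circles, chips 1 and 5; squares, chips 2, 3, 4 and 6; open symbols, not detected), and bars give the mean and SD of 5 arrays. The Hspa1a points of CD-cc and cc lie at 5.45 and above, and the con points at 4.90 and below.

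The inducible Hsp70 gene Hspa1a, whose protein rescues unfolded proteins in stressed cells, had the widest range of the set. Its signal was 7.63, 6.93, 6.26, 6.16 and 6.35 log2 in CD-cc, 9.02, 7.75, 6.00, 5.45 and 9.37 in cc, 5.34, 5.38, 4.85, 5.17 and 6.00 in CD, and 4.90, 4.64, 4.75, 4.76 and 4.59 in con. All arrays of CD-cc and of cc lay above all arrays of con, and the probe was detected on 3 of 5 con arrays and on every other array. The means were 6.67 ± 0.616 in CD-cc, 7.52 ± 1.76 in cc, 5.35 ± 0.42 in CD and 4.73 ± 0.118 in con (SD, n = 5 each). The order from the highest was therefore cc, CD-cc, CD and con, and none of the 3 neighbouring pairs differed past the adjusted test.

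After crystals alone Hspa1a was higher than in con by log2 2.79 ± 0.548 (limma adjusted p = 0.00157). This is 6.92-fold as measured, and since the con signals were near background it is not an exact fold. Without background correction the change was log2 1.43 (adjusted p = 0.0079). After crystals and cyclodextrin Hspa1a was higher than in con by log2 1.94 ± 0.548 (limma adjusted p = 0.016), 3.84-fold as measured and with the same limit. That call held in 12 of 15 alternatives other than leaving out 1 array (adjusted p of 0.000437 to 0.143). It was lost without background correction (log2 0.76, adjusted p = 0.143), with the authors' table and a set block (log2 0.76, adjusted p = 0.0826) and with the chip as a fixed block (log2 1.49, adjusted p = 0.101). The change after cyclodextrin alone was log2 0.62 with a 95% interval of -0.52 to 1.76 (limma adjusted p = 0.814). It was called in 1 of 35 alternatives (limma adjusted p = 0.0448).

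The Hspa1a values after crystals divided by chip batch. In cc the 3 arrays of chips 1 and 5 lay between 7.75 and 9.37 log2 and the other 2 at 5.45 and 6.00, against 4.59 to 4.90 and 4.64 to 4.75 in con. Within chips 1 and 5 the change in cc against con was log2 3.96 ± 0.357 (limma adjusted p = 6.08e-07), and within the remaining chips it was 1.03 ± 0.438 (adjusted p = 0.385). The difference of the changes had a limma adjusted p of 0.0524, beside 0.13% of all genes past the test for such a difference. For CD-cc against con the changes were alike in sign and closer, log2 2.19 ± 0.357 within chips 1 and 5 and 1.57 ± 0.438 within the rest. For CD-cc against cc they were log2 -1.77 ± 0.357 and 0.53 ± 0.438 (adjusted p of the difference 0.0722, with 0.799% of genes past that test). The order of CD-cc and cc thus differed by batch in these arrays, without passing the adjusted test. For CD against con the changes were log2 0.38 ± 0.357 within chips 1 and 5 and 0.97 ± 0.438 within the rest (limma adjusted p = 0.927 and 0.288). On chips 2, 3, 4 and 6 the means were close, 5.72 log2 in cc and 5.67 in CD. Of 54 batch differences over 9 genes and 6 contrasts, 0 passed the limma test (lowest adjusted p = 0.0524), beside 0.13% of all genes in cc against con, 0.809% in CD against con, 1.28% in CD-cc against con, 0.799% in CD-cc against cc, 0.0599% in CD-cc against CD and 0% for the interaction.

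The other Hsp70-coding copies gave little more. A further Hspa1a probe was detected on 2 arrays, both of cc (5.10 and 5.49 log2, the arrays where the first probe was at 9.02 and 9.37), and the last on 0. Hspa1a and Hspa1b are near-identical copies on chromosome 17, 10120 bases apart, so signal of either can be read by a probe named for the other, and the level of Hspa1a is uncertain to that extent. Hspa8, the constitutive Hsp70 that also uncoats clathrin vesicles, moved little. Its brightest probe had 12.43, 12.64, 12.53, 12.58 and 12.33 log2 in CD-cc, 13.01, 12.78, 12.30, 12.28 and 12.75 in cc, 12.47, 12.55, 12.65, 12.82 and 12.63 in CD, and 13.00, 12.66, 12.69, 12.95 and 12.98 in con. All CD-cc arrays lay just below all con arrays, and cc and con overlapped. The change in CD-cc against con was log2 -0.36 ± 0.133 (limma adjusted p = 0.0646), and it passed with the set of arrays as a block (adjusted p = 0.012). The 2 further probes of Hspa8 had log2 -0.21 and -0.02 in that comparison, neither past the test.

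Hsph1, the Hsp110 that releases ADP from Hsp70, was 1.47-fold higher in cc than in con. Its signal was 10.18, 9.50, 9.83, 9.65 and 9.76 log2 in CD-cc, 10.14, 10.05, 10.01, 9.86 and 10.08 in cc, 9.36, 9.58, 9.54, 9.17 and 9.34 in CD, and 9.70, 9.40, 9.54, 9.38 and 9.35 in con. Every cc array was above every con array, and CD-cc overlapped both con and CD. The rise after crystals was log2 0.56 ± 0.12 (limma adjusted p = 0.00311), with 0.62 in the first chip batch and 0.47 in the second. In CD-cc Hsph1 was log2 0.39 ± 0.12 higher than in CD (limma adjusted p = 0.0479, higher in 5 of 5 sets). That value stood at the threshold: leaving out 1 array at a time gave adjusted p-values of 0.0239 to 0.138, above 0.05 in 17 of 20 fits. CD-cc against con gave log2 0.31 ± 0.12 (limma adjusted p = 0.0723, and 0.0213 with the set block).

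Dnajb1, the J-domain partner that stimulates Hsp70 to hydrolyse ATP, did not follow. Its signal was 10.16, 9.81, 9.86, 9.57 and 10.02 log2 in CD-cc, 10.05, 10.29, 10.02, 10.12 and 10.35 in cc, 10.16, 10.53, 10.38, 10.13 and 9.93 in CD, and 10.39, 9.96, 10.07, 10.21 and 10.46 in con. The groups overlapped throughout. The change in cc against con was log2 -0.05 with a 95% interval of -0.33 to 0.23, which leaves out the size of the Hsph1 change in the same arrays. In CD-cc it was log2 -0.33 ± 0.134 against con (limma adjusted p = 0.085, and 0.0196 with the set block) and -0.34 ± 0.134 against CD (adjusted p = 0.126, and 0.0283 with the set block), lower in all 5 sets of arrays in both comparisons.

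Hsp90aa1, the stress-inducible form of Hsp90, was 1.76-fold higher in cc than in con. Its brightest probe had 8.99, 8.23, 8.51, 8.88 and 8.39 log2 in CD-cc, 9.23, 9.07, 8.63, 9.02 and 9.34 in cc, 8.17, 8.24, 8.36, 7.64 and 8.26 in CD, and 8.41, 8.58, 7.98, 8.03 and 8.21 in con. The cc arrays lay above all con arrays, the closest pair being 8.63 in cc and 8.58 in con, and CD-cc lay across both. The rise in cc against con was log2 0.82 ± 0.174 (limma adjusted p = 0.00285), with 1 in the first chip batch and 0.54 in the second. A further, dimmer probe gave log2 0.48 ± 0.276 in that comparison (adjusted p = 0.291 over all detected probes), and the remaining one was detected on 0 arrays. By the brightest probe CD-cc differed from con by log2 0.36 (limma adjusted p = 0.16, and 0.048 with the set block) and from CD by 0.46 (adjusted p = 0.107, and 0.0216 with the set block). The dimmer probe had log2 0.03 against con and 0.16 against CD (limma adjusted p = 0.963 and 0.828 over all detected probes).

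Hspb1, a small heat shock protein that holds unfolded proteins without using ATP, was dim on every array, between 4.86 and 5.78 log2. It had a mean of 5.11 ± 0.289 in CD-cc, 5.08 ± 0.148 in cc, 5.41 ± 0.166 in CD and 5.39 ± 0.282 in con (SD, n = 5 each). The change was log2 -0.28 in CD-cc and -0.32 in cc against con (limma adjusted p = 0.193 and 0.155). Its other probe was detected on 0 arrays.

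Hspe1 had 9.42, 8.45, 8.66, 8.96 and 8.62 log2 in CD-cc, 9.08, 9.57, 8.96, 8.64 and 9.71 in cc, 8.46, 8.78, 9.27, 8.42 and 8.02 in CD, and 8.94, 8.82, 8.29, 8.40 and 8.53 in con. The upper cc arrays were those of chips 1 and 5, and the groups overlapped. The change in cc against con was log2 0.60 ± 0.236 (limma adjusted p = 0.0901, higher in 4 of 5 sets), and it passed with the set block (adjusted p = 0.0106). The first chip batch had 0.83 and the second 0.25.

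The metallothioneins lie 5315 bases apart on chromosome 8 and showed no called change. Mt1 had 13.47, 13.39, 13.28, 13.18 and 13.52 log2 in CD-cc, 13.28, 13.28, 13.39, 13.43 and 13.47 in cc, 13.49, 13.35, 13.69, 13.35 and 13.37 in CD, and 13.13, 13.36, 13.38, 12.97 and 13.20 in con. The treated groups overlapped each other and con. The 95% interval of the change against con was -0.05 to 0.38 log2 in CD-cc and in cc and 0.03 to 0.46 in CD, where the change was 0.25 (1.19-fold, limma adjusted p = 0.372).

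Mt2 had 5.47, 4.94, 5.04, 5.69 and 4.48 log2 in CD-cc, 5.13, 5.25, 5.25, 5.20 and 5.10 in cc, 4.93, 5.58, 5.75, 5.21 and 5.57 in CD, and 5.46, 4.73, 5.03, 4.69 and 4.59 in con. It was near background, detected on 4 arrays of CD-cc, 5 of cc, 5 of CD and 3 of con, and the groups overlapped. Its largest change was in CD against con (log2 0.51 with a 95% interval of 0.08 to 0.93, limma adjusted p = 0.334).

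**Figure D2:**
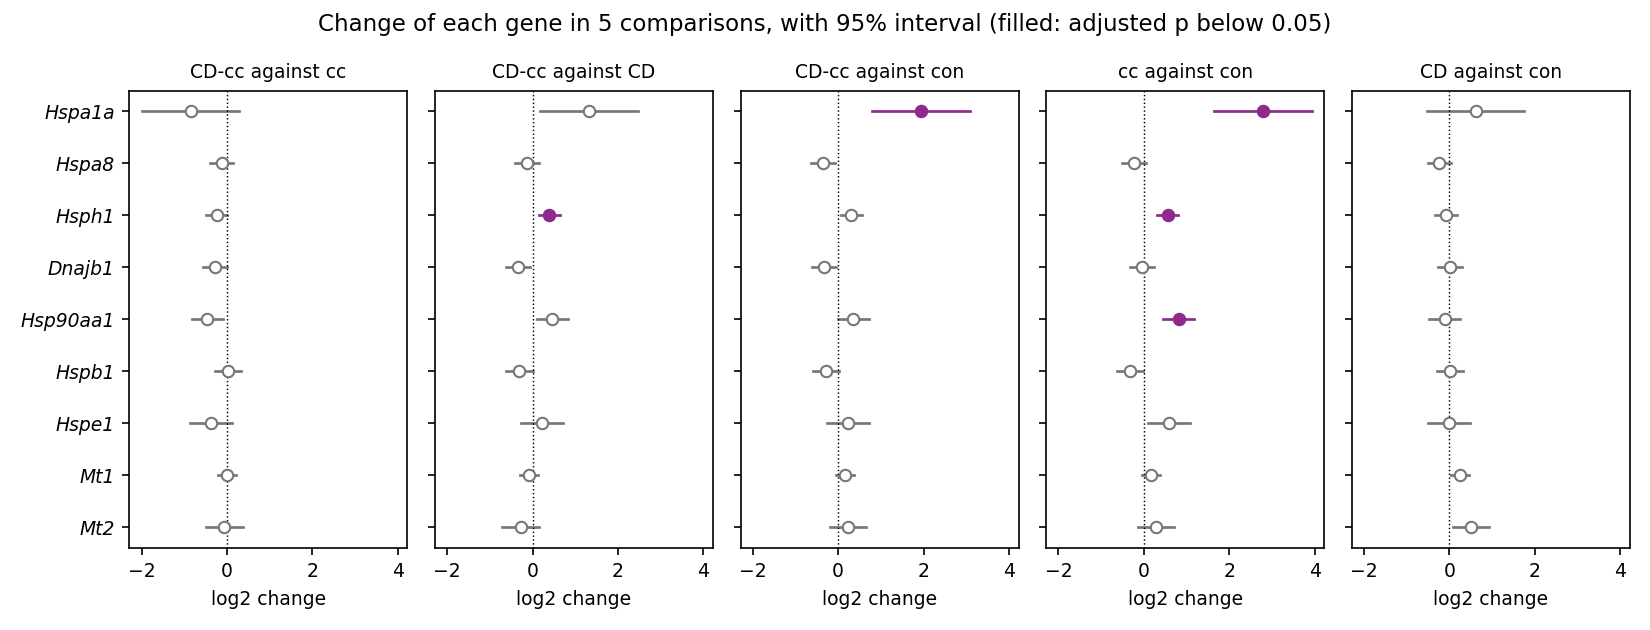
Log2 change (horizontal axis) of the 9 tested genes in 5 comparisons, with 95% intervals from the limma fit. Filled points have an adjusted p below 0.05: Hspa1a in CD-cc against con, Hsph1 in CD-cc against CD, and Hspa1a, Hsph1 and Hsp90aa1 in cc against con.

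Counted over the set, the comparison of cc with con holds both the crystals and the age label. There 3 of 9 genes were higher, 0 were lower and 6 did not pass, beside 17.5% of all genes called (8.49% higher). The same 3 genes had cc arrays that did not overlap con, as did 7.32% of all genes. With the set of arrays as a block Hspe1 was called higher too, beside 27.7% of all genes called. The median change of the 9 was log2 0.28, against -0.02 over all genes tested. In CD against con, which holds both the cyclodextrin and the age label, 0 of 9 were called by limma, beside 1.13% of all genes. An unadjusted p below 0.05 was found for 2 of the 9 (Mt1 and Mt2) and for 1051 of all 10018 genes. Among all genes 0.848% were higher, and 1.91% lay above con and 1.22% below it without overlap, against 0 of the 9. The median there was log2 0.01 against -0.02.

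In CD-cc against con 1 of 9 was higher and 0 were lower, beside 20.2% of all genes called (9.06% higher). The median was log2 0.22 against -0.03. With the set of arrays as a block 5 were called, Hspa1a, Hsph1 and Hsp90aa1 higher and Hspa8 and Dnajb1 lower, beside 31.8% of all genes. Hspa1a was above con on all CD-cc arrays and Hspa8 below it, as were 6.86% and 8.08% of all genes. The comparisons with con share its arrays, and CD-cc and cc share the crystals.

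In CD-cc against CD, groups of the same age label, 1 of 9 was called, Hsph1 higher, beside 9.2% of all genes (4.56% higher). With the set block 3 were called, Hsph1 and Hsp90aa1 higher and Dnajb1 lower, beside 18.5% of genes. Hspa1a was log2 1.32 higher in CD-cc than in CD with no overlap of arrays, as were 4.01% of all genes, and did not pass (limma adjusted p = 0.15). None of the 9 lay wholly below CD, as 3.47% of all genes did.

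CD-cc against cc asks what cyclodextrin changes in cells that had been given crystals. By limma 0 of 9 genes were called, beside 0% of all genes, of which 815 had an unadjusted p below 0.05. Among the 9, Hsp90aa1 and Dnajb1 did, with log2 -0.46 (adjusted p = 0.441) and -0.28 (adjusted p = 0.606), each lower in 5 of 5 sets. The median change was log2 -0.24 against -0.02, and 1 of 9 changes was positive. No gene of the set lay wholly above or below cc, as did 0.888% and 0.489% of all genes. The authors' value table, tested by limma without a set term, gave 3 called lower (Hsph1, Dnajb1 and Hsp90aa1), beside 611 of 10018 genes called, 302 of them lower. With the set term that its construction calls for, 0 of the 9 were called. The interaction of crystals and cyclodextrin gave 0 of 9 called by limma, beside 0.0399% of all genes (0.00998% with a positive and 0.0299% with a negative interaction). An unadjusted p below 0.05 was found for 0 of the 9 and for 230 of all 10018 genes. Hspa1a had log2 -1.47 there with a 95% interval of -3.09 to 0.15.

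**Figure D3:**
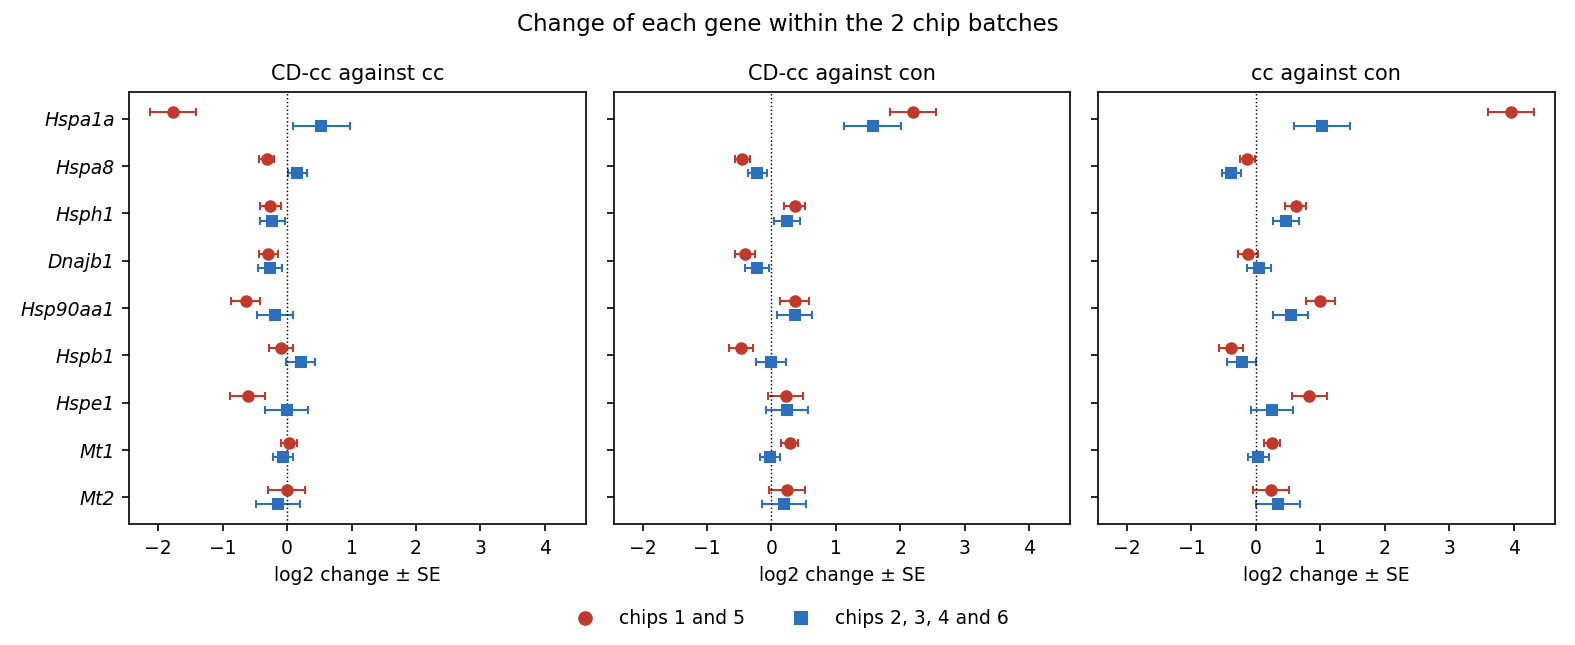
Log2 change ± SE (horizontal axis) of the 9 tested genes on chips 1 and 5 (circles, 3 arrays a group) and on chips 2, 3, 4 and 6 (squares, 2 arrays a group), in 3 comparisons. For Hspa1a the circles and squares lie at -1.77 and 0.53 in CD-cc against cc, 2.19 and 1.57 in CD-cc against con, and 3.96 and 1.03 in cc against con.

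The partners of these genes were followed in 8 lists of 121 genes, of which 113 had a probe and 91 were tested. In cc against con 14 of 91 were higher, 4 lower and 73 did not pass, which is 19.8% called beside 17.5% of all genes (median log2 0.11, against -0.02). With the set block 17 were higher and 5 lower there, 24.2% beside 27.7%. In CD-cc against con 16 were higher and 4 lower, 22% beside 20.2% of all genes, and with the set block 20 and 9, 31.9% beside 31.8%. In CD against con 2 were higher, 2.2% beside 1.13%, and with the set block 3, 3.3% beside 4.12%. The 8 lists as a whole were thus called at about the share of all genes in cc and in CD-cc against con. In CD-cc against CD 9 were higher and 4 lower, 14.3% beside 9.2% of all genes, and with the set block 11 and 8, 20.9% beside 18.5%. In CD-cc against cc limma called 0 of 91, and with the set block Slc31a2 higher and Dedd2 lower, 2.2% beside 1.8%.

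The list of mitochondrial chaperones and proteases had 4 of 10 genes higher and 0 lower in CD-cc against con, and likewise 4 and 0 in cc against con, beside 9.06% and 8.49% of all genes called higher. Its median change was log2 0.45 in CD-cc and 0.50 in cc, and 0.08 in CD, where 0 of 10 were called by limma. Hspd1, the chaperonin barrel whose start region overlaps that of Hspe1, had 11.46, 11.39, 11.19, 11.25 and 11 log2 in CD-cc, 11.70, 11.41, 11.15, 11.37 and 11.73 in cc, 10.84, 10.26, 10.80, 10.37 and 10.55 in CD, and 10.58, 10.79, 10.41, 10.28 and 10.38 in con. The arrays with crystals lay above all arrays without them. Hspd1 was 1.71-fold higher in CD-cc (log2 0.77 ± 0.142, limma adjusted p = 0.000889) and 1.98-fold higher in cc (log2 0.99 ± 0.142, adjusted p = 0.000112), and in cc it was higher by 1.2 within chips 1 and 5 and by 0.66 within the rest.

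Hspa9, the mitochondrial Hsp70, averaged 12.96 ± 0.206 log2 in CD-cc, 13.06 ± 0.212 in cc, 12.28 ± 0.314 in CD and 12.15 ± 0.186 in con (SD, n = 5 each), and was log2 0.81 higher in CD-cc and 0.91 higher in cc than in con (limma adjusted p = 0.000858 and 0.000348). Its J-domain partner Dnaja3 was higher by log2 0.68 and 0.73 in the same order. Clpp, a protease of the mitochondrial matrix, was higher by log2 0.48 and 0.50. The same 4 genes were the ones called in CD-cc against CD, with log2 changes of 0.69 for Hspd1, 0.68 for Hspa9, 0.67 for Dnaja3 and 0.37 for Clpp. That is 40% of the list, beside 9.2% of all genes called there (4.56% higher). Lonp1, another matrix protease, had log2 0.56 in CD-cc and 0.51 in cc (limma adjusted p = 0.0581 and 0.0926). With the set block 5 of 10 were higher in each comparison, the added gene being Lonp1 in CD-cc (adjusted p = 0.032) and Grpel2 in cc (log2 0.50, adjusted p = 0.0397), beside 31.8% and 27.7% of all genes called in either direction.

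**Figure D4:**
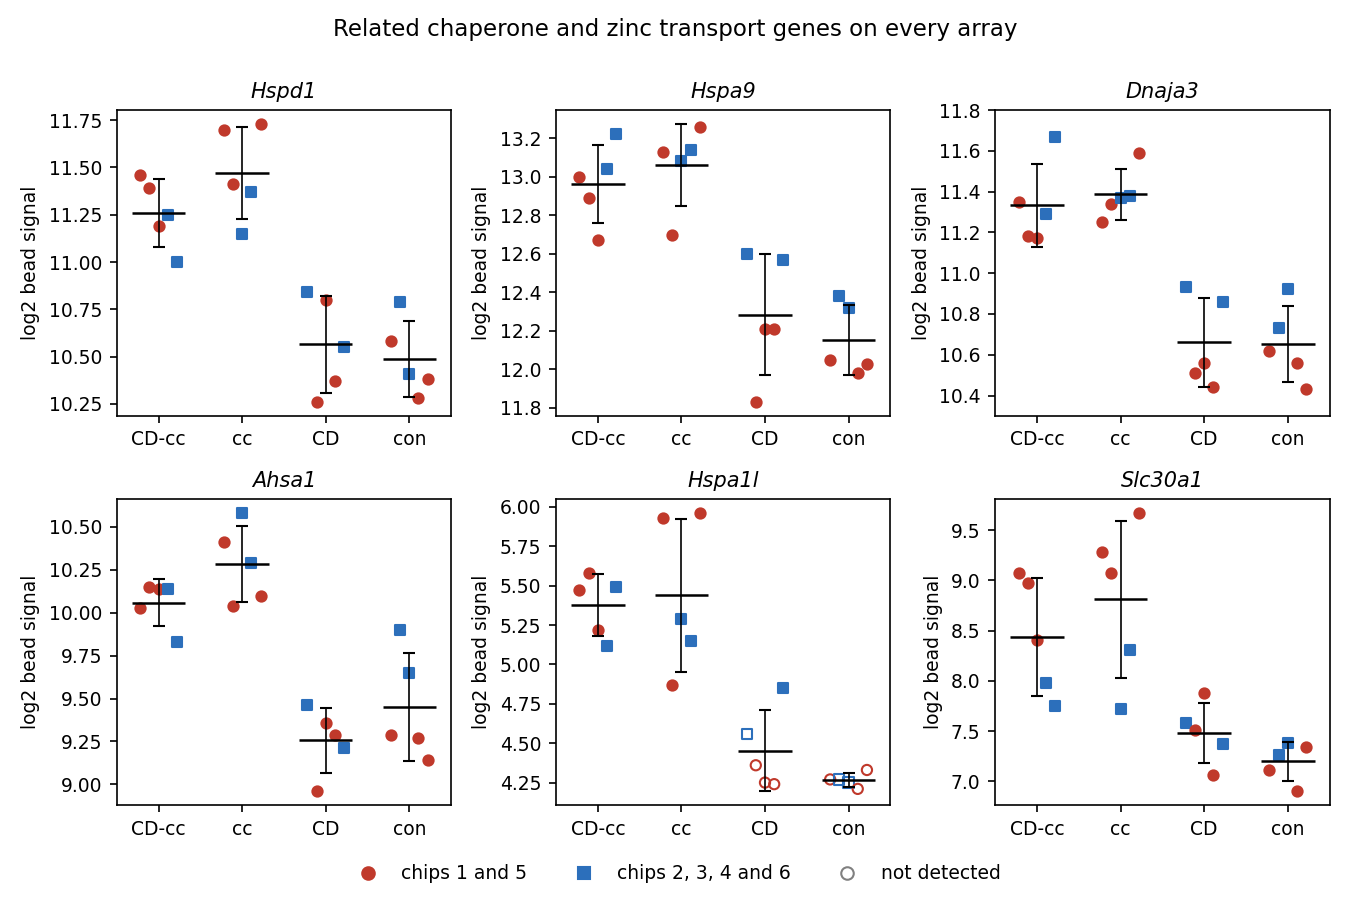
Log2 bead signal (vertical axis, a separate range for each gene) of 6 related genes in groups CD-cc, cc, CD and con, drawn as in the plot of the chaperone and metallothionein genes, with bars for the mean and SD of 5 arrays. For Hspd1, Hspa9 and Dnaja3 every CD-cc and cc array lies above every CD and con array, and open symbols for Hspa1l mark 5 con and 4 CD arrays without detection.

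The list of other Hsp70 and Hsp110 genes had 1 higher and 2 lower of 12 in CD-cc against con and 2 higher and 2 lower in cc against con, which is 25% and 33.3% called beside 20.2% and 17.5% of all genes. With the set block St13 was also called higher in cc (log2 0.55, adjusted p = 0.0358), 41.7% of the list beside 27.7% of all genes. Hspa1l, a relative of Hspa1a whose start lies 547 bases from it on the opposite strand, had 5.12 to 5.58 log2 in CD-cc and 4.87 to 5.96 in cc, and was detected on all of those arrays, on 1 CD array and on 0 con arrays. Against the lowest signal detected on each con array it was at least 1.56-fold higher in CD-cc and at least 1.63-fold higher in cc (limma adjusted p = 0.000321 and 0.000188). Its probe passed the detection filter only through the arrays with crystals, so these p-values are no separate support for the rise there. Hspa2, an Hsp70 best known from spermatogenesis, was lower by log2 -0.80 in CD-cc and -0.59 in cc (adjusted p = 0.000562 and 0.00592), and Bag4, which binds Hsp70, by -0.47 and -0.31. Hspa4, an Hsp110, was higher in cc (log2 0.71, adjusted p = 0.035), and Bag3, which links Hsp70 to small heat shock proteins, had log2 -0.23 in CD-cc and -0.26 in cc and did not pass.

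Among Hsp90 and its partners, 3 of 14 were higher and 1 lower in CD-cc against con, and 2 were higher and 0 lower in cc, which is 28.6% and 14.3% called beside 20.2% and 17.5% of all genes. With the set block Fkbp5 was also called in cc, lower (log2 -0.52, adjusted p = 0.0281), 21.4% of the list beside 27.7% of all genes. Ahsa1, which speeds the ATPase of Hsp90, had 10.03, 10.15, 10.14, 10.14 and 9.83 log2 in CD-cc, 10.41, 10.04, 10.58, 10.29 and 10.10 in cc, 9.46, 8.96, 9.36, 9.29 and 9.21 in CD, and 9.29, 9.90, 9.65, 9.27 and 9.14 in con. The lowest CD-cc array reached into con, and the cc arrays did not. Ahsa1 was higher by log2 0.61 in CD-cc and 0.83 in cc (limma adjusted p = 0.00515 and 0.000565), with 0.87 for CD-cc in the first chip batch and 0.21 in the second. Its relative Ahsa2 was lower by log2 -0.57 in CD-cc against con, where Cdc37 and Cdc37l1, which bring kinases to Hsp90 or resemble the gene that does, were higher by 0.52 and 0.46. Stip1 and Fkbp4, which also dock on Hsp90, did not pass in either comparison.

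Of the J-domain genes, Dnajc2, which works at the ribosome, and Dnajb6 were higher, by log2 0.65 and 0.67 in CD-cc and by 0.49 and 0.52 in cc. With 0 of 9 lower, 22.2% were called in each, beside 20.2% of all genes in CD-cc and 17.5% in cc. The cytosolic chaperonin list had 1 of 13 higher in each, Cct3 in CD-cc (log2 0.43) and Cct8 in cc (log2 0.36). That is 7.69% in each, below the shares of all genes. With the set block Cct8 and Cct6a were also called higher and Pfdn5 lower in CD-cc (adjusted p = 0.0334, 0.0448 and 0.0171). The share of the list was then 30.8%, beside 31.8% of all genes. No small heat shock gene of 3 tested was called in any comparison without the set block (Cryab had log2 -0.06 in CD-cc and -0.10 in cc). With it Hspb6 was lower in CD-cc against con (log2 -0.31, adjusted p = 0.03), 33.3% of the list beside 31.8% of all genes. Hsf2, a heat shock factor, had log2 -0.57 in CD-cc and -0.07 in cc, and the value in CD-cc passed with the set block alone (adjusted p = 0.0191, against 0.093 without it). Of the 6 tested genes in the list of heat shock factors and regulators, Dedd2 was lower in CD-cc against con (log2 -0.93, limma adjusted p = 0.0177). That is 16.7% of the list, beside 20.2% of all genes. With the set block Vcp was called higher in cc (log2 0.27, adjusted p = 0.0453), 16.7% beside 27.7%. Hsf1 was not among the genes tested.

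**Figure D5:**
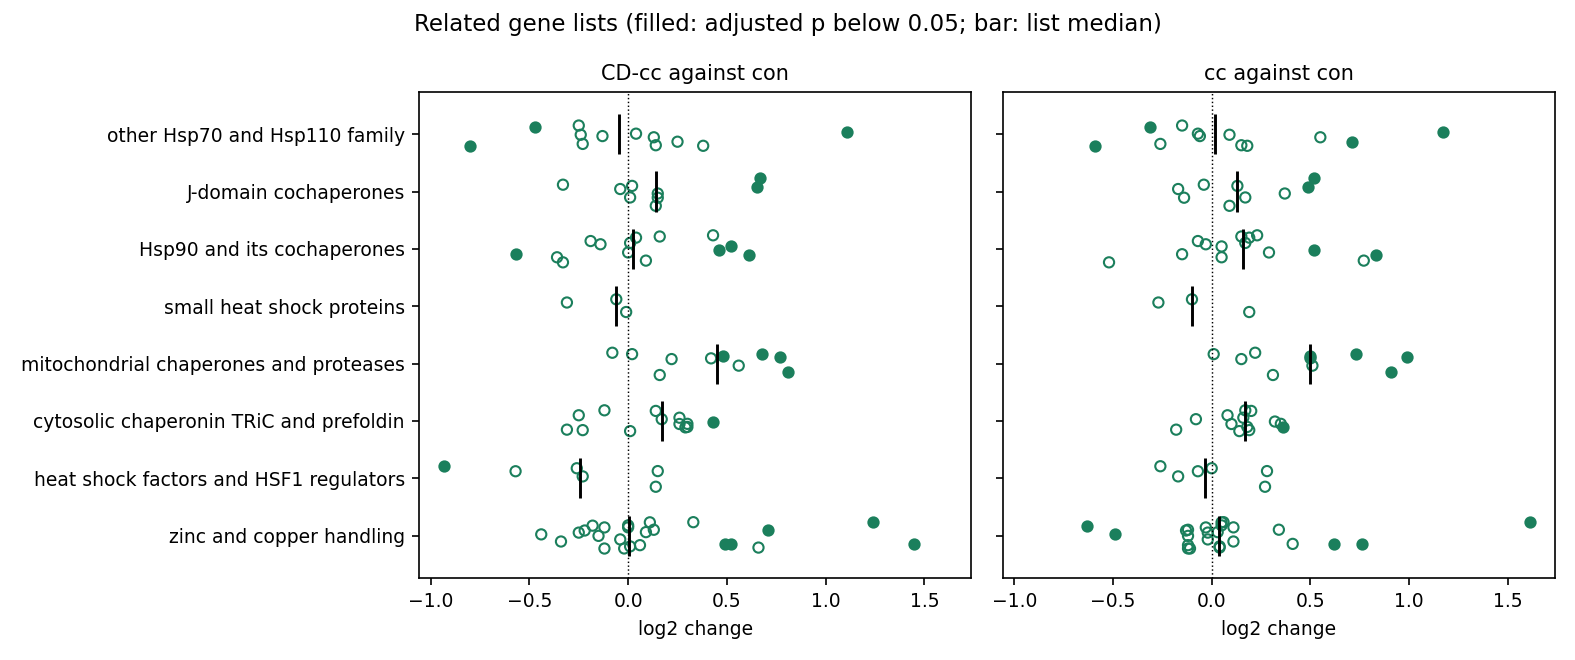
Log2 change (horizontal axis) of every tested gene of 8 related lists (rows) in CD-cc against con and in cc against con; filled points have a limma adjusted p below 0.05 and bars mark the list median. The mitochondrial list has its median at 0.45 in CD-cc and 0.50 in cc, and the zinc and copper list at 0.01 and 0.04.

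In the zinc and copper list 5 of 24 genes were higher and 0 lower in CD-cc against con, and 3 were higher and 2 lower in cc, which is 20.8% called in each beside 20.2% and 17.5% of all genes. With the set block 6 were higher and 2 lower in CD-cc against con, 33.3% beside 31.8% of all genes. The added calls were Slc39a4 higher (log2 0.66) and Atox1 and Slc30a5 lower (log2 -0.44 and -0.25). Slc30a1, the exporter that carries zinc out of the cell and a known MTF1 target like Mt1, had 9.07, 8.97, 8.41, 7.98 and 7.75 log2 in CD-cc, 9.28, 9.07, 7.72, 8.31 and 9.67 in cc, 7.58, 7.51, 7.88, 7.06 and 7.37 in CD, and 7.11, 7.26, 7.38, 6.90 and 7.34 in con. All CD-cc and cc arrays were above all con arrays. Slc30a1 was 2.36-fold higher in CD-cc (log2 1.24 ± 0.304, limma adjusted p = 0.00656) and 3.06-fold higher in cc (log2 1.61 ± 0.304, adjusted p = 0.00116). Its rise in cc came to log2 2.22 in the first chip batch and 0.69 in the second, a difference with an adjusted p of 0.122. Its start region, at chr1:191906531-191906780 (plus strand), held 1 metal response core on the opposite strand, in capitals. The gene is listed at chr1:191906697-191913248, so that region lies partly inside it, the core included.
Slc30a1: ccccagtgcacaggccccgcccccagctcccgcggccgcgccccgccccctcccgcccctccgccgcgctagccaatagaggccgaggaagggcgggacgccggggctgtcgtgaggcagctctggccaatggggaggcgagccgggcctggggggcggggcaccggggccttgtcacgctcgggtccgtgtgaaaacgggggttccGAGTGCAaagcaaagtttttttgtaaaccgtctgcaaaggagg

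The zinc importers Slc39a6 and Slc39a7, of the plasma membrane and of the endoplasmic reticulum and Golgi, were higher by log2 0.52 and 0.49 in CD-cc and by 0.76 and 0.62 in cc (limma adjusted p between 0.00182 and 0.0207). Slc39a13, a zinc transporter of the Golgi and vesicles, was higher in CD (log2 0.82, adjusted p = 0.00724) and lower in cc (log2 -0.63, adjusted p = 0.00502), each against con, and had log2 -1 in CD-cc against CD. Slc31a2, a copper transporter of endosomes and lysosomes, was higher by log2 1.45 in CD-cc and 1.36 in CD (adjusted p = 0.000362 and 0.00653). Its rise in CD came to 0.99 in the first chip batch and 1.9 in the second. For CD-cc against cc it had log2 0.44 and 1.93 in these batches, a difference past the limma test (adjusted p = 0.0252). It was the 1 that passed of 150 such differences over the named related genes. Among all genes 0.799% passed in CD-cc against cc, and 0% (interaction) to 1.28% (CD-cc against con) over the contrasts. Slc31a1, the copper importer of the plasma membrane, was higher in CD-cc (log2 0.71, adjusted p = 0.00616) and had log2 0.71 in CD (adjusted p = 0.0527, and 0.019 with the set block), and Atox1, which carries copper to the ATPases of the Golgi, was lower in cc (log2 -0.49). Mtf1 itself had log2 0.06 in CD-cc, -0.12 in cc and 0.05 in CD and did not pass.

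The genes whose pattern lay nearest to that of Hspa1a were found by the mean absolute difference of log2 values over the 20 arrays, after each gene's mean in con was subtracted, among 10009 genes outside the set. They were Ddit3 at 0.509, which encodes the stress transcription factor CHOP, Samd8 at 0.551, Rasd2 at 0.555, Rapgef3 at 0.558 and Papss2 at 0.574. Ddit3 was log2 2.35 above con in CD-cc, 2.90 in cc and 0.31 in CD. For Mt1 the nearest were Bdh2 at 0.0894, Rala at 0.0901, Rlim and Clk2 at 0.105 and Serbp1 at 0.108, all genes of small change. These distances describe the arrays and carry no test.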

How the data were processed

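RNA of 20 arrays in 4 groups of 5, on 6 chips, was analysed from 1 deposited file of average bead signals (intensity, linear scale, not background-subtracted, per the file headers and the values) for 45281 probes. Beside each signal it has the detection p-value that the authors deposited, per the file headers. A value table that the authors deposited holds log2 values, and its steps were found by recomputing it: log2 signals after quantile normalisation, shifted until every probe had the same mean in every one of 5 sets, a set being 4 arrays from the 4 groups. The SD of recomputed minus deposited values was 6.96e-05 and the greatest gap 0.0185, all 20 arrays matched their own column best, and the deposited column medians were 6.711 to 6.715. Partek is named in the submitters' processing notes, with no version.

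Background correction (normexp, with the controls' level worked out from detection p-values), an offset of 16, quantile normalisation and the log2 step were run as neqc of limma 3.58.1 in R 4.3.3. The offset shrinks changes of dim probes. The filter kept 18348 probes whose detection p was under 0.05 on 5 or more arrays. Of all probes, 34885 had 1 symbol in the platform annotation, 18 had several and 10378 had none. The probe of 1 symbol with the highest mean stood for its gene (10018 genes from 15671 probes), and further probes of the named genes were read from a fit over all detected probes. A model of the 4 groups was fitted with limma's lmFit and eBayes, and 5 comparisons and the interaction were tested two-sided, and checked on simulated data. Figures were drawn with matplotlib 3.10.9. The number of arrays limits the precision.

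The 10 genes, the lists and the alternatives were chosen with earlier results of these data known. Named genes are the 10 in every contrast, up to 4 called genes of each list with the largest change in a contrast (more where a count is spelled out, and genes of the lists given as not passing, which were chosen after their values were seen), and the 5 genes nearest to Hspa1a and to Mt1. Replicate numbers did not pair the arrays, and the sets did share deviations. The correlation of deviations between arrays of 1 set was -0.08 to 0.74 (median 0.53, above 0.1 in 27 of 30 pairs), and the sets come from the authors' table, not from the labels. Promoter letters and gene positions are from RefSeq, GRCm38.p6.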

Additional observations from a re-analysis of the deposited data

Results flagged for a closer look

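Of 36 combinations of a gene and a group, 2 held an array far from the other 4, by a gap to the nearest array above 0.71 of the group's whole range. Chance flags about 1 in 20 groups. Hsp90aa1 was at 7.64 log2 on CD replicate 4, with the other CD arrays at 8.17 to 8.36. Hspb1 was at 5.61 log2 on CD-cc replicate 4, with the other CD-cc arrays at 4.91 to 5.10, and without that array its change in CD-cc against con passed the limma test (log2 -0.41, adjusted p = 0.0439). What sets these arrays apart was not tested.

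Slc31a2, the copper transporter, had a change in CD-cc against cc that differed between the chip batches, log2 0.44 on chips 1 and 5 and 1.93 on chips 2, 3, 4 and 6. The difference was log2 -1.48 (limma adjusted p = 0.0252), beside 0.799% of all genes past that test. Xist level and chip batch cannot be told apart there.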

How the results depend on the processing

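Counts are of the 9 tested genes called. In cc against con 3 were called, 3 to 4 when each array was left out in turn, 6 from the authors' table and 0 on chips 2, 3, 4 and 6 alone. In CD against con the count was 0, and 1 from the authors' table and 1 on chips 2, 3, 4 and 6 alone. In CD-cc against con 1 was called, and 1 to 2 when each array was left out. It was 2 without background correction, with trend and robust fitting, with the chip as a random block and on chips 1 and 5 alone, 6 from the authors' table, 4 from that table with the set as a block (added after seeing the data), 5 with the set block, and 0 among probes detected on all 20 arrays, where Hspa1a was not tested. Hspa1a was not among the genes called without background correction (limma adjusted p = 0.143) or with the chip as a fixed block (0.101). Nor was Hspa1a called from the authors' table with the set as a block (limma adjusted p = 0.0826). In CD-cc against cc the count was 0, and 3 from the authors' table. In CD-cc against CD it was 1, and 0 to 1 when each array was left out. It was 0 with scale normalization, no detection filter, all detected probes, the chip as a fixed or as a random block, chips 2, 3, 4 and 6 alone and without the 3 arrays of lowest signal, and 3 from the authors' table, from that table with the set block and with the set block alone. The interaction stayed at 0 in all 15 alternatives and 20 fits without 1 array; only the groups of a contrast could not be used for it. None of the 5 called changes of the 9 genes changed sign under any alternative, and 14 of the 49 that were not called did under at least 1 (Hspa1a in CD-cc against cc ran from -1.77 to 0.53). The authors' table has set means removed, so its spread is too small without a set term. Of all 10018 genes it called 3668 in cc, 943 in CD and 4063 in CD-cc against con. It called 611 in CD-cc against cc and 2820 in CD-cc against CD. In the same order the main fit called 1750, 113, 2025, 0 and 922.

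The replicate block changed no count of the 9 genes, which were 3, 0, 1, 0, 1 and 0 in the order cc, CD and CD-cc against con, CD-cc against cc, CD-cc against CD and interaction. The replicate number does not pair the arrays: deviations of same-numbered arrays correlated at -0.56 to 0.65 (median -0.20, above 0.1 in 8 of 30 pairs). Among all genes, scale normalization called 423 higher and 231 lower in cc against con, beside 851 and 899, and 45 and 3 in CD against con, beside 85 and 28; the authors' table called 470 and 473 in CD against con.

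With cc replicate 4 left out Hspe1 was called in cc against con (log2 0.74, adjusted p = 0.0407). In CD-cc against con, Dnajb1 was called without CD-cc replicate 1 (log2 -0.40, adjusted p = 0.0472), Hsph1 without CD-cc replicate 2 (log2 0.39, adjusted p = 0.033) and Hspa8 without cc replicate 1 (log2 -0.36, adjusted p = 0.0429). Hspa1a, Hsph1 and Hsp90aa1 in cc against con and Hspa1a in CD-cc against con were called in all 20 such fits. Dim signal limits Hspb1, Mt2 and Hspa1a in con, all near background.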
